A study of Mus musculus with 20 samples.

Results

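The mitochondrial respiratory chain genes on the array were taken as all probe sets whose gene symbol names a subunit of complexes I to V (symbols beginning with Nduf, Sdh, Uqcr, Cox4 to Cox8 or Atp5). The rule matched 173 probe sets. Of these, 164 named 1 gene and gave 81 genes, out of 18193 genes on the array. The other 9 named several genes and were not used, which left Ndufa11 and Ndufs6 without a value. Each gene was represented by its probe set with the highest mean over the 20 arrays. A gene was tested when its highest group mean reached 3.95, the 40th percentile of all log2 values, which held for 79 of the 81 genes and for 14010 genes in all. Ndufa4l2 and Ndufb4 were below that level in all 10 groups, with means over 20 arrays of 2.67 and 3.15, and were not tested. By complex, 32 of the 79 belong to complex I, 4 to complex II, 8 to complex III, 18 to complex IV (Ndufa4 counted there) and 17 to complex V.

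RNA of mouse cells was measured on 20 expression arrays, 2 per group, in 5 cell lines at 2 stages. All lines are male, of strain C57BL/6;129, and carry the reporters Blimp1-mVenus and stella-ECFP and the doxycycline-dependent activator Rosa26-rtTA. The parental line, BVSCR26rtTA, has no added factor. The other lines carry doxycycline-driven transgenes in addition: line B (clone #2-4) Avi-Blimp1, line P14 (clone #7-109) 3xFLAG-Prdm14, line A (clone #8-2) V5-Tfap2c, and line BP14A (clone #3-3) all 3. The stages are epiblast-like cells (EpiLCs, a culture counterpart of the early post-implantation epiblast) after 36 h of differentiation, and whole aggregates of those cells after 24 h in GK15 medium with doxycycline at 1.5 µg/ml, called day 1 below. The parental line received doxycycline as well, and no aggregates without doxycycline were analysed here. In a change from EpiLC to day 1, the parts of doxycycline, aggregation, medium and the further 24 h therefore cannot be told apart. Each line is 1 clone, so that a factor and its clone cannot be told apart. The design asks what each of the factors changes on the way to germ-like cells.

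The respiratory chain passes electrons from NADH (complex I, NADH dehydrogenase) or succinate (complex II, succinate dehydrogenase) through complex III (cytochrome bc1) to complex IV (cytochrome c oxidase), which reduces oxygen, and complex V (ATP synthase) uses the resulting proton gradient to make ATP. Most subunits are encoded in the nucleus, and several subunits of complex IV exist as a common form and as a form found mainly in muscle, lung or testis. Cells of the early post-implantation epiblast are known for a strong use of glycolysis, and germ cells for a shift towards respiration.

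Array medians lay between 4.60 and 4.86, and the 2 arrays of a group correlated at Pearson r of 0.966 to 0.976 over all probe sets. The probe sets of an array are not independent replicates. The 5 EpiLC markers Pou5f1, Fgf5, Pou3f1, Dnmt3b and Otx2 were above the filter level in all 10 groups. Their summed level (the log2 of the sum of their linear values) was 14.46 to 14.55 in the EpiLC groups and 12.99 to 14.41 on day 1. Of 6 endoderm, 6 fibroblast, 5 trophoblast and 3 blood markers, 1, 3, 3 and 1 reached the filter level in all groups. These were Sox17, then Col1a2, Col3a1 and Dcn, then Eomes, Tfap2a and Krt7, and Cd68. Among them Dcn had group means of 6.18 to 8.09, Cd68 of 6.065 to 7.13 and Eomes of 5.565 to 7.00. Afp, Ttr, Col1a1, Postn, Elf5 and Hba-a1 reached the filter level in none. Control probe sets for 18S ribosomal RNA, Gapdh and beta actin were examined, and of these 1 moved with the stage without overlap. The 18S ribosomal RNA probe set read 10.79 to 11.67 on EpiLC arrays and 11.72 to 12.32 on day 1 arrays. Its part in the stage changes was not tested. Errors below are limma standard errors (SE), and adjusted p-values are limma's with Benjamini-Hochberg adjustment over all 14010 genes. A gene was called at an adjusted p under 0.05. With 2 arrays per group the number of arrays limits the precision.

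Between EpiLCs and day 1, the median change of the subunit transcripts was small and above 0 in all 5 lines. All 4 subunits of complex II rose in every line, and the complex IV isoform Cox7b2 fell in every line. In the parental line 35 of 79 genes rose and 6 fell, against a background of 21.9% of all genes rising and 12.6% falling. The median change was 0.155 on the log2 scale for these genes and 0.05 for all genes. In BP14A 26 rose and 6 fell (background 23.2% and 17.8%), with a median of 0.10 against 0.03. In B 23 rose and 8 fell (background 24.1% and 18%), with a median of 0.10 against 0.06. After centring of each array on its median, however, 2 rose and 8 fell in B (background 16.9% and 18.3%). In P14 15 rose and 7 fell (19.0% and 8.86%, background 19.2% and 15.8%), with a median of 0.045 against 0.02. In A 19 rose and 3 fell (background 20.5% and 12.3%), with a median of 0.105 against 0.045.

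**Figure D1:**
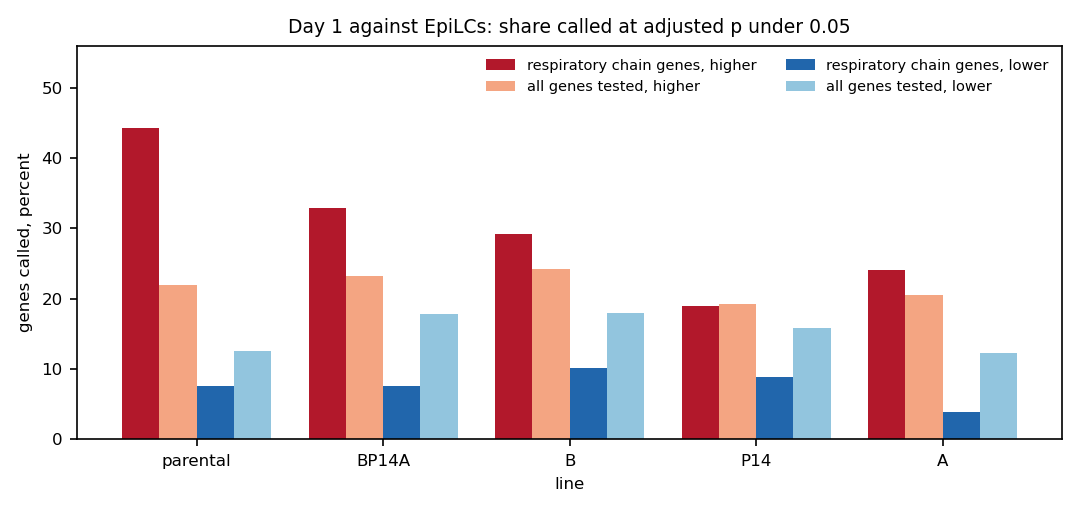
Bars give the percentage of the 79 respiratory chain genes and of all 14010 genes tested that were called higher or lower on day 1 than in EpiLCs (adjusted p under 0.05), for each line. In the parental line 44.3% of the respiratory chain genes were higher against 21.9% of all genes, and the share of respiratory chain genes called lower ran from 3.80% in A to 10.1% in B, against 12.3% and 18% of all genes there.

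These counts are those of bulk RNA, in which a change in the number of cells of a type and a change of RNA per cell cannot be told apart. The changes were small: among the called genes a log2 change of at least 1 was reached upward by none in any line, and downward by Cox7b2 in every line and by Cox6b2 in B. Of all genes 3.97%, 5.73%, 5.78%, 4.33% and 3.58% rose that far in the parental line, BP14A, B, P14 and A, and 2.62%, 4.88%, 3.94%, 3.73% and 2.55% fell that far. Since 69 of the 79 genes have a mean of at least 10, the background was also taken over the 1844 genes that bright. Of the 69, 34 rose and 2 fell in the parental line, against 25.3% and 15.2% of the bright genes. In B 22 of them rose and 4 fell, against 22.3% and 32%. More bright genes fell than rose in B, while more of the 69 rose than fell.

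The counts depend on the scaling and on single arrays. When each array was centred on its median, 9 genes rose and 3 fell in the parental line, 12 and 3 in BP14A, 2 and 8 in B, 4 and 3 in P14, and 8 and 3 in A. The median change was above 0 in the 5 lines under centring, at 0.17, 0.10, 0.02, 0.015 and 0.16 in the same order, and under a second quantile normalization, at 0.12, 0.11, 0.12, 0.066 and 0.11. A fit of only the 4 arrays compared called 3, 7, 7, 5 and 4 genes. Against the 41 genes called in the parental line, 18 were called without day 1 array 1, 19 without EpiLC array 1 and 22 without day 1 array 2. Against 32 in BP14A there were 17 without EpiLC array 2 and 19 without day 1 array 2, and against 31 in B 19 without EpiLC array 1. Against 22 in P14 there were 10 without EpiLC array 2 and 11 without EpiLC array 1 or day 1 array 1. Against 22 in A there were 9 without day 1 array 1, 12 without day 1 array 2 and 13 without EpiLC array 1.

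Across the 5 lines, 43 of the 79 genes had a positive change in every line and 9 a negative change in every line. The matching shares of all genes were not taken, so that these counts have no background. In single lines 54 to 65 of the 79 genes had a positive change, beside 7338 to 7839 of all 14010 genes. The genes called higher in all 5 lines were 8: Sdha, Sdhb, Sdhc, Sdhd, Uqcrc2, Cox7a2l, Atp5d and Atp5h. Of all genes tested 9% were called higher in all 5 lines, so that a count of 8 among 79 is near the background. The count depends on the setting: it was 1 (Sdhc) after centring, 4 (the Sdh genes) without a filter on low values, 6 with the mean of all kept probe sets, 11 after a second quantile normalization and 0 in fits of only the arrays compared. Atp5d and Cox7a2l were not among the 11. Cox7b2 was the only member called lower in all 5 lines, beside 5.17% of all genes. A further 24 genes were called in no line, a count for which no share of all genes was taken either. The arrays of the 5 stage comparisons are separate from each other.

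**Figure D2:**
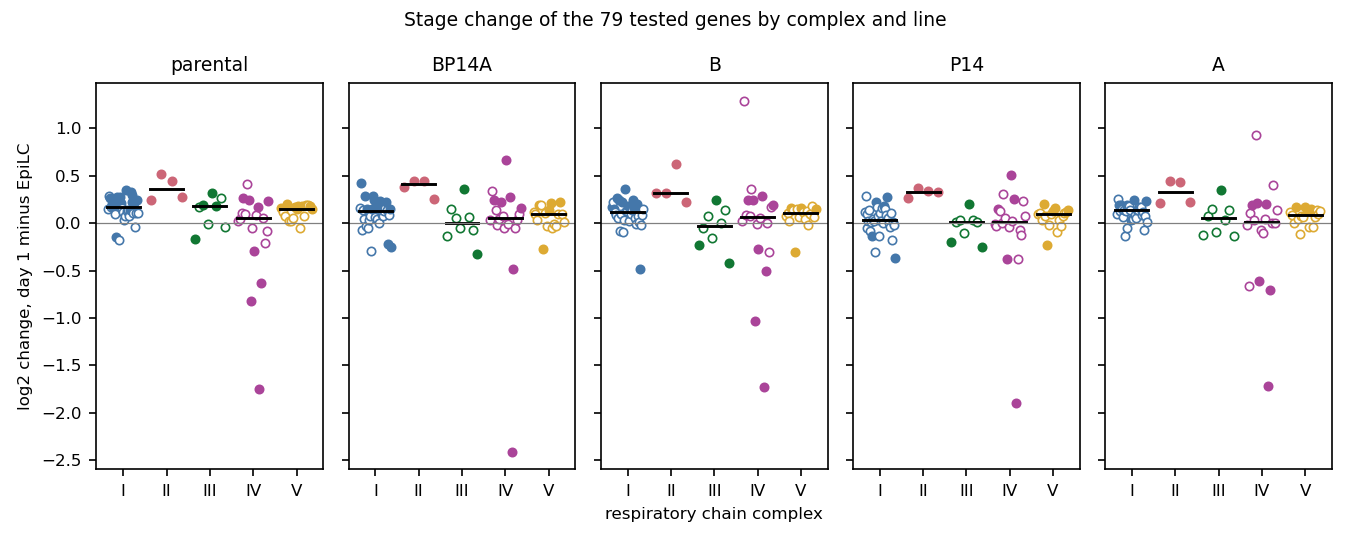
Each point is 1 of the 79 tested genes, placed by its log2 change from EpiLC to day 1 (vertical axis) and its complex (horizontal axis), with 1 panel per line. Filled points passed an adjusted p of 0.05, open points did not, and black bars are medians. All 4 complex II genes are filled and above 0 in every panel, and the lowest point in every panel is Cox7b2, at -1.72 to -2.41.

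Complex I, the entry point for electrons of NADH, held the largest number of rising genes in the parental line, BP14A, B and A. It is also the complex with the most tested genes. By share complex II was higher in every line, at 100%, and complex V in the parental line (52.9%) and in A (23.5%). In P14 complexes III (12.5%), IV (16.7%) and V (23.5%) were also higher by share than complex I. In the parental line 15 of the 32 tested genes of complex I rose and 1 fell, with a median change of 0.1675. In BP14A 12 rose and 2 fell, in B 11 rose and 1 fell, in P14 3 rose and 2 fell, and in A 7 rose and none fell. These are shares of 46.9%, 37.5%, 34.4%, 9.38% and 21.9% rising, and those of P14 and A are below or near the shares of all genes, 19.2% and 20.5%. In the parental line the largest rises were those of Ndufb7, an accessory subunit of the membrane arm (log2 change 0.355, SE 0.064, adjusted p 0.0010), Ndufs1, the largest iron-sulphur subunit (0.33, adjusted p 0.011), and Ndufs4, an accessory subunit whose loss causes complex I deficiency (0.30, adjusted p 0.0025). Ndufb7 also rose in BP14A, B and A, by 0.225, 0.175 and 0.24, and had a change of 0.16 with an adjusted p of 0.071 in P14. The complex I gene that rose most was Ndufa10 in BP14A (0.42, adjusted p 0.012) and Ndufb11 in B (0.36, adjusted p 0.0011). Ndufa7 was the only complex I gene to fall in the parental line, by 0.145. The calls of Ndufb7 in B and of Ndufa7 in the parental line were each lost under 8 of 10 alternative settings.

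All 4 genes of complex II, the enzyme that oxidises succinate to fumarate in the citric acid cycle and hands its electrons to ubiquinone, rose in every line. Sdha encodes the flavoprotein that binds succinate. Its EpiLC arrays read 10.61 and 10.62 in the parental line, 10.60 and 10.65 in BP14A, 10.60 and 10.68 in B, 10.63 and 10.60 in P14, and 10.60 and 10.64 in A. Its day 1 arrays read 10.85 and 10.86, 11.06 and 10.96, 10.94 and 10.97, 10.86 and 10.90, and 10.83 and 10.84 in the same order of lines. The 2 stages did not overlap, and the highest single array was 1 of BP14A on day 1, at 11.06, while its other array (10.96) lay among those of B. The change of Sdha was 0.24 in the parental line, 0.385 in BP14A, 0.315 in B, 0.265 in P14 and 0.215 in A (SE 0.053 each, adjusted p 0.0039, 9.2e-05, 0.00044, 0.0019 and 0.0080).

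Sdhb encodes the iron-sulphur subunit. Its EpiLC arrays read 10.69 and 10.73 in the parental line, 10.74 and 10.74 in BP14A, 10.95 and 10.87 in B, 10.81 and 10.63 in P14, and 10.72 and 10.72 in A. Its day 1 arrays read 11.28 and 11.17, 11.18 and 11.20, 11.24 and 11.21, 11.14 and 11.04, and 11.22 and 11.11. The stages did not overlap, and the EpiLC arrays of B were the highest of that stage. The change was 0.515 in the parental line, 0.45 in BP14A, 0.315 in B, 0.37 in P14 and 0.445 in A (SE 0.071 each, adjusted p 0.00015 to 0.0032).

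Sdhc and Sdhd encode the 2 membrane anchors. Sdhc read 8.02 to 8.21 on the EpiLC arrays of the 5 lines, and on day 1 8.64 and 8.55 in the parental line, 8.52 and 8.58 in BP14A, 8.73 and 8.74 in B, 8.41 and 8.54 in P14, and 8.54 and 8.42 in A. Its stages did not overlap, and B was highest on day 1. The change of Sdhc in B, 0.63 (SE 0.085, a 1.55-fold rise, adjusted p 8.3e-05), was the largest of any complex II gene, and its changes in the other lines were 0.34 to 0.45. Sdhd changed by 0.22 to 0.325 (SE 0.059, adjusted p 0.00098 to 0.013), and its stages did not overlap within any line. Each of the 20 calls of complex II genes was recomputed under 10 alternative settings, and no gene and line lost its call under more than 4 of them. Of the 4 genes Sdhc alone was called in all 5 lines after centring of the arrays. Other probe sets of Sdha, Sdhc and Sdhd that passed the filter also changed upward in all 5 lines.

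The promoters of 3 complex II genes are shown because their transcripts moved together in every line, followed by those of the gene that fell most, Cox7b2, and of Cox7a1, which was called higher in 2 lines and lower in 2. Each is the 250 bases before the RefSeq transcription start, 5′ to 3′ on the gene's strand, in build GRCm38.p6: Sdha chr13:74350241-74350490 (minus strand), Sdhb chr4:140961021-140961270 (plus), Sdhd chr9:50603850-50604099 (minus), Cox7b2 chr5:71548206-71548455 (minus) and Cox7a1 chr7:30183921-30184170 (plus). Capitals mark matches, on either strand, to 6 searched motifs.
Sdha: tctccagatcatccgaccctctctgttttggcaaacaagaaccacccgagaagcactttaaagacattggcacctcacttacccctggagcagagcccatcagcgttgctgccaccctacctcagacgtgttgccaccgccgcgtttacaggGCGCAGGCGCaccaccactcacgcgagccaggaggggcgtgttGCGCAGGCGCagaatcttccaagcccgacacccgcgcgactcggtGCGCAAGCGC
Sdhb: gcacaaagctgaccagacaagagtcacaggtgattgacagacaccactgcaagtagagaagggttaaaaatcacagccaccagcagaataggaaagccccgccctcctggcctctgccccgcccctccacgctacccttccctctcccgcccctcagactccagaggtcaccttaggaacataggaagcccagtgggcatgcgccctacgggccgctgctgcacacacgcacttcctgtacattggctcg
Sdhd: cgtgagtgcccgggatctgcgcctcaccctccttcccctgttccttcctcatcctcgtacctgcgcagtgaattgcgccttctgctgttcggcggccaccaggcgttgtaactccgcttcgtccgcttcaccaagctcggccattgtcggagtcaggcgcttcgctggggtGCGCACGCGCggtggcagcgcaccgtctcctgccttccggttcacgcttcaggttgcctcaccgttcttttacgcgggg
Cox7b2: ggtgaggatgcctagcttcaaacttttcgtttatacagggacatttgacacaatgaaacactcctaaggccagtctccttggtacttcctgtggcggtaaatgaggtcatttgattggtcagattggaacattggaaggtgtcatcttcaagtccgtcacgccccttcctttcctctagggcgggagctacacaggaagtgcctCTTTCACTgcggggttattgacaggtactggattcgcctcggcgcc
Cox7a1: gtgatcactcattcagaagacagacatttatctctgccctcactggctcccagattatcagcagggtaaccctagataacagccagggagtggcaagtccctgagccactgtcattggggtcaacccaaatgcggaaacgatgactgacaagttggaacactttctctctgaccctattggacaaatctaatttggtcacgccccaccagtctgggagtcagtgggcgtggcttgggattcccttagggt
The capitals in Sdha are 3 matches to the NRF1 motif (GCGCA, any 1 base, GCGC), starting 98, 55 and 10 bases before the start site, and Sdhd has 1 such match 79 bases before it. NRF1 is a transcription factor known for its sites in respiratory chain promoters. Sdhb and Cox7a1 have no match to any of the 6 motifs. Cox7b2 has 1 match to the PRDM1 motif AGTGAAAG, read on the opposite strand, starting 46 bases before its start site. A match is a stretch of letters and not a measured binding site. Of the 65 tested members with a promoter in the table, 9 (13.8%) held the NRF1 motif, against 7.75% of 11240 promoters of tested genes. The ETS motif CCGGAAGT was found in 3 members (4.62%, against 5.36% of all) and the YY1 motif ATGGCGGC in 1 (1.54% against 1.73%). The AP2 motif GCCNNNGGC was found in 9 (13.8% against 20%), the PRDM1 motif in 2 (3.08% against 0.934%) and the PRDM14 motif GGTCTCTAA in 0 (against 0.205% of all). Matches of different motifs could share letters.

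Complex III moved less evenly. Uqcrc2, a core protein of the complex, rose in all 5 lines, by 0.32, 0.365, 0.24, 0.20 and 0.355 in the parental line, BP14A, B, P14 and A (SE 0.067, adjusted p 0.00087 to 0.037). Uqcrb and Uqcrfs1, the latter being the Rieske iron-sulphur protein, rose in the parental line alone among the calls, by 0.19 and 0.185. Uqcrq, a small ubiquinone-binding subunit, fell in BP14A, B and P14, by 0.33, 0.415 and 0.255 (SE 0.052, adjusted p 0.00028, 4.7e-05 and 0.0023), and its changes of -0.035 in the parental line and -0.14 in A did not pass. Uqcr10, another small subunit, fell in the parental line, B and P14, by 0.17, 0.235 and 0.195. The rise of Uqcrc2 in P14 was lost under 7 of 10 alternative settings, and the fall of Uqcr10 in P14 and in the parental line under 6 and 5.

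In complex V, 9 of 17 genes rose in the parental line and none fell, a share of 52.9% rising against 21.9% of all genes. In BP14A, P14 and A 4 rose (23.5%, against 23.2%, 19.2% and 20.5% of all genes) and in B 3 (17.6% against 24.1%), which is near or below the background. Atp5d, the delta subunit of the F1 part, rose by 0.165 to 0.205 and Atp5h, a subunit of the peripheral stalk, by 0.13 to 0.175 in all 5 lines, with adjusted p-values up to 0.049 and 0.037. Atp5g1, 1 of 3 genes for the proton-carrying c ring, fell in BP14A, B and P14, by 0.27, 0.305 and 0.23 (SE 0.069, adjusted p 0.0072, 0.0033 and 0.021). Its changes were 0.02 in the parental line and -0.11 in A, neither past the threshold. Neither of the other c-ring genes was called lower: Atp5g3 rose by 0.175 in the parental line, and Atp5g2 had changes of -0.015 to 0.155, none of which passed.

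The largest change in every line was that of a complex IV isoform, Cox7b2. This form of subunit 7b, known from testis, read 6.37 and 6.44 in parental EpiLCs and 4.80 and 4.50 in parental aggregates. In BP14A it read 6.05 and 6.23 and then 3.97 and 3.49, and in B 5.99 and 6.05 and then 4.22 and 4.36. In P14 it read 6.17 and 5.81 and then 3.86 and 4.33, and in A 6.03 and 6.13 and then 4.19 and 4.53. The stages did not overlap, and the lowest single array was 1 of BP14A on day 1, at 3.49, while its other array (3.97) lay above 1 array of P14 (3.86). The gene fell by 1.755 in the parental line, 2.41 in BP14A, 1.73 in B, 1.895 in P14 and 1.72 in A (SE 0.195, adjusted p 1.1e-06 to 3.5e-05), and no alternative setting ended any of these calls. The day 1 mean in BP14A, 3.73, lay below the filter level, so that the size there is approximate.

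Cox6b2, a form of subunit 6b known from testis, read 8.20 and 7.99 in parental EpiLCs and 7.32 and 7.23 in parental aggregates. It read 7.90 and 8.23 in B EpiLCs and 7.01 and 7.05 in B aggregates, but 7.68 and 7.63 in BP14A EpiLCs and 7.78 and 7.68 in BP14A aggregates. In P14 it read 8.23 and 8.25 and then 7.85 and 7.87, and in A 7.63 and 7.89 and then 7.03 and 7.28. In BP14A the stages overlapped, and in the other 4 lines day 1 lay below EpiLC. The gene fell by 0.82 in the parental line, 1.035 in B, 0.38 in P14 and 0.605 in A (SE 0.121, adjusted p 0.00026, 2.6e-05, 0.029 and 0.0023) and had a change of 0.075 in BP14A (adjusted p 0.67). Its common counterpart Cox6b1 rose in the parental line, BP14A, B and A, by 0.21 to 0.245, and had a change of 0.05 in P14. Of the 4 testis markers, Tnp1, Prm1 and Acr were below the filter level in all groups, and Ldhc was above it in all, with group means of 6.52 to 6.855 in EpiLCs and 4.575 to 6.15 on day 1. Their summed level was 6.88 to 7.08 in EpiLCs and 5.35 to 6.62 on day 1. The part of that shift in the changes of Cox7b2 and Cox6b2 was not tested. The fall of Cox6b2 in P14 was lost under 5 of 10 alternative settings.

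Cox7a1, the muscle form of subunit 7a, moved in opposite directions between lines. It read 6.22 and 6.18 in parental EpiLCs and 5.89 and 5.93 in parental aggregates, 6.31 and 6.17 in BP14A EpiLCs and 6.93 and 6.89 in BP14A aggregates, and 6.16 and 6.05 in P14 EpiLCs and 6.64 and 6.59 in P14 aggregates. In B it read 5.94 and 5.80 in EpiLCs and 5.52 and 5.67 in aggregates, and in A 5.95 and 6.12 and then 5.98 and 5.89. The 4 aggregate arrays of BP14A and P14 were above all other arrays, and only in A did the stages overlap. Cox7a1 rose by 0.67 in BP14A and 0.51 in P14 (SE 0.082, adjusted p 3.7e-05 and 0.00042) and fell by 0.29 in the parental line and 0.275 in B (adjusted p 0.017 each). The falls in the parental line and in B were lost under 5 and 3 of 10 alternative settings. Its common counterpart Cox7a2 had changes of -0.01 to 0.085, none of which passed.

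**Figure D3:**
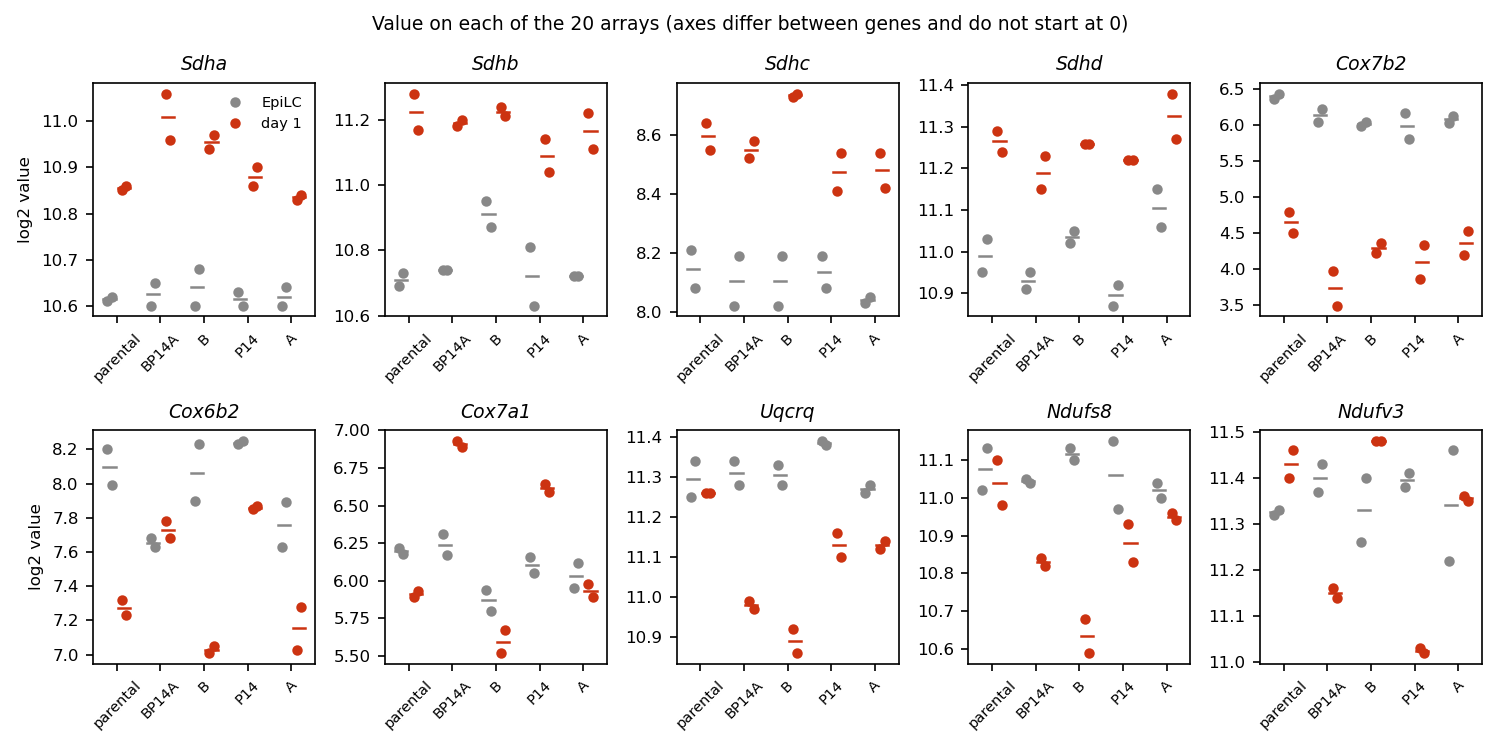
Points are the log2 values of the 2 EpiLC arrays (grey) and the 2 day 1 arrays (red) of each line for 10 genes, and short bars are their means. The axes differ between genes and do not start at 0. The 4 Sdh genes are higher on day 1 in every line, Cox7b2 is lower in every line, and Cox7a1 is higher on day 1 in BP14A and P14 alone.

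Of the remaining complex IV genes, Cox5b, which binds zinc, and Ndufa4 rose in 3 lines each, Cox7a2l, known from the joining of complexes III and IV, rose in 5, and Cox4i1, the common form of the regulatory subunit 4, had changes of -0.015 to 0.03. Cox7c fell in the parental line, BP14A, B and A, by 0.635, 0.48, 0.505 and 0.70. Its probe set has a mean of 6.75, the lowest among the genes not restricted to particular tissues, and its fall was lost under 4 of 10 alternatives each in the parental line, BP14A and B. Cox4i2 and Cox6a2, forms known from lung and muscle, were near the filter level (20-array means 3.67 and 3.51) and were not called. Cox8b, the muscle form of subunit 8, read 4.07 to 5.02 on all arrays and was not called, and Cox8c, its testis form, read 7.31 to 7.82.

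Before doxycycline few genes differed between the lines. Against parental EpiLCs no member was called in BP14A, B, P14 or A by limma, where 4, 5, 3 and 1 members had an unadjusted p under 0.05. Over all genes the calls were 8, 33, 9 and 5, or 0.0571%, 0.236%, 0.0642% and 0.0357%. The lowest adjusted p among members was that of Cox7a1 in B, at 0.16, with a difference of -0.33. No alternative setting called a member in these 4 comparisons. Most members nevertheless read slightly above parental EpiLCs: 56, 64, 63 and 52 of 79 in BP14A, B, P14 and A. Their median difference was 0.03, 0.045, 0.045 and 0.02, against -0.01, 0.02, -0.015 and -0.015 for all genes. For the 1844 bright genes it was 0.03, 0.04, 0.025 and 0.025. The same 2 parental EpiLC arrays also enter the parental stage change and each difference of stage changes.

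On day 1 each transgenic line was compared with the parental line, which had also received doxycycline. The same 2 parental arrays enter all 4 comparisons, so that the comparisons are not independent of each other. Few subunits differed. In BP14A 3 of 79 genes were higher and 5 lower, against a background of 12.4% and 15% of all genes. In B none was higher and 3 were lower (background 8.42% and 8.79%), and in P14 3 were higher and 5 lower (background 8.84% and 15%). In A limma called no member, and over the whole array 2 genes were higher and 10 lower (0.0143% and 0.0714%). There 1 member had an unadjusted p under 0.05. The median difference of the members was 0.01 in B, -0.03 in P14 and -0.02 in A, and 38 of 79 members were above the parental line in BP14A. The shares of members called were therefore below those of all genes in BP14A, B and P14. After centring of the arrays 1 was higher and 3 lower in BP14A and 2 and 2 in P14, and after a second quantile normalization 4 were higher and 3 lower in B.

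The genes that were higher in BP14A were Cox7a1 (1.00, SE 0.082, 2.00-fold, adjusted p 2.3e-06), Cox6b2 (0.455, adjusted p 0.015) and Sdha (0.155, adjusted p 0.048). Those that were higher in P14 were Cox7a1 (0.705, 1.63-fold, adjusted p 5.5e-05), Cox6b2 (0.585, adjusted p 0.0038) and Cox8c (0.34, adjusted p 0.032). In B Cox7a1 was lower, by 0.315 (adjusted p 0.021). The differences of Cox7a1 from the parental line on day 1 thus ran upward in the 2 lines that carry Prdm14 and downward in the line with Blimp1 alone. In B a difference of -0.33 was there among EpiLCs, without a call, and its stage change differed from the parental one by 0.015. In BP14A and P14 the differences among EpiLCs were 0.04 and -0.095. Of 5 embryonic stem cell markers, all above the filter level in all 10 groups, Zfp42, Klf4, Esrrb and Nr0b1 had higher day 1 means in BP14A and P14 than in the other 3 lines. Tbx3 did not, at 7.585 in BP14A and 7.745 in P14 against 7.71, 7.79 and 7.835 in the parental line, B and A. The summed level of the 5 on day 1 was 11.20 in BP14A and 11.51 in P14, and 9.21, 9.46 and 9.09 in the parental line, B and A. The summed level of the 5 EpiLC markers was lowest in the same lines, at 12.99 in BP14A and 13.37 in P14, against 14.41, 13.98 and 14.39, with Dnmt3b at 9.87 and 11.14 against 13.21 in the parental line. The part of these differences in the values of Cox7a1 was not tested. The summed level of the 6 heart and skeletal muscle markers ran otherwise, at 6.97 in the parental line, 6.96 in BP14A, 8.84 in B, 6.35 in P14 and 7.12 in A. Of that list Myh7 and Mb were below the filter level in all groups, and Actc1 was highest in B, at 8.65.

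In BP14A 3 of the 5 lower genes were complex I subunits, in P14 4 of 5 and in B 1 of 3. Of the 32 tested complex I genes these are 9.38%, 12.5% and 3.12%. Each share is below that of all genes called lower, which was 15%, 15% and 8.79% in the same order. Ndufa12, an accessory subunit, read 11.63 and 11.56 in parental aggregates, 11.27 and 11.30 in BP14A and 11.33 and 11.26 in P14, with no overlap. It was lower by 0.31 in BP14A and 0.30 in P14 (SE 0.052, adjusted p 0.00075 and 0.0012). Ndufv3, a small subunit of the NADH-binding arm, read 11.40 and 11.46 in parental aggregates, 11.16 and 11.14 in BP14A and 11.03 and 11.02 in P14. Both lines lay below the parental arrays, by 0.28 and 0.405 (SE 0.074, adjusted p 0.013 and 0.0016). In B Ndufv3 read 11.48 on both arrays, and its difference from the parental line did not pass.

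Ndufs8, an iron-sulphur subunit of the electron path, read 11.10 and 10.98 in parental aggregates, 10.68 and 10.59 in B and 10.84 and 10.82 in BP14A. It was lower by 0.405 in B (SE 0.072, adjusted p 0.0025) and by 0.21 in BP14A (adjusted p 0.048). All 6 of its probe sets had a negative stage change in BP14A, B, P14 and A. In the parental line these changes ran from -0.055 to 0.03. Against parental aggregates all 6 read lower in BP14A, B and P14. Uqcrq of complex III read 11.26 on both parental arrays, 10.92 and 10.86 in B and 10.99 and 10.97 in BP14A. It was lower by 0.37 in B and 0.28 in BP14A (SE 0.052, adjusted p 0.00056 and 0.0016). With the mean of all its probe sets, the dimmer ones included, the call of Uqcrq was lost in both lines. P14 in addition had lower Ndufa5 (by 0.23), Ndufv2 (by 0.215) and Atp5g1 (by 0.205), and BP14A had lower Cox7b2 (by 0.92, an approximate size, since its mean there was below the filter level).

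**Figure D4:**
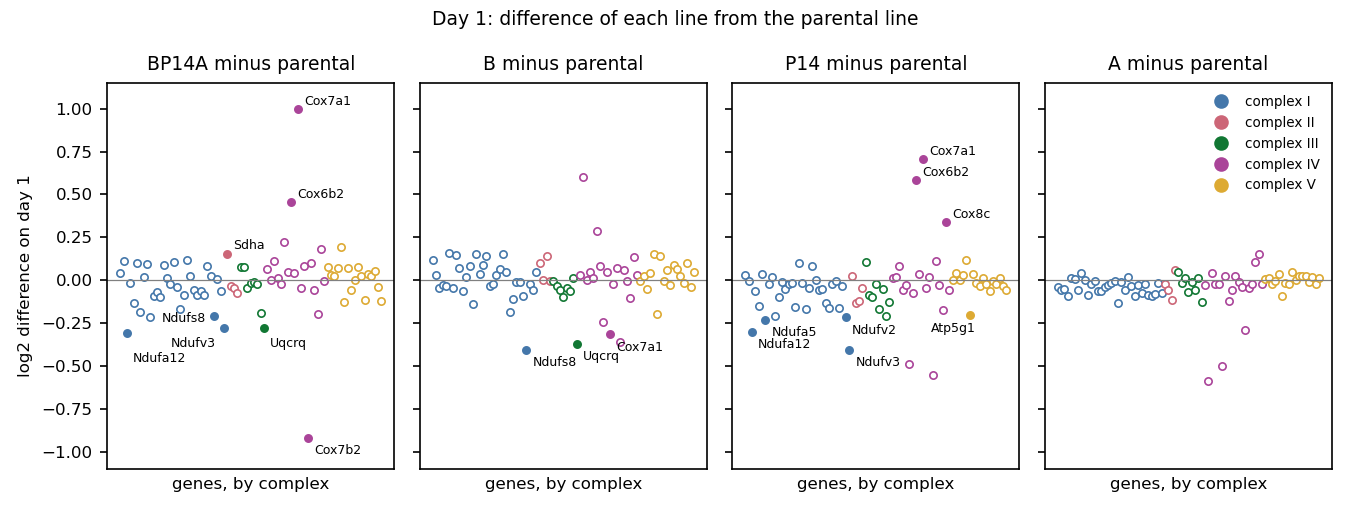
Each point is 1 of the 79 genes, coloured by complex, placed by its log2 difference on day 1 from the parental line (vertical axis). Filled, named points passed an adjusted p of 0.05 and open points did not. Cox7a1 is the highest point in the panels of BP14A and P14, at 1.00 and 0.705, and no point is filled in the panel of A.

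Among these calls those of Cox7a1 in BP14A and P14 and of Cox6b2 in P14 held under all 10 alternative settings. The call of Atp5g1 in P14 was lost under all 10, those of Ndufa5 in P14 and Ndufs8 in BP14A under 8, that of Sdha in BP14A under 7 and that of Cox8c in P14 under 6. Of the 8 members called in P14, 5 were called in a fit without day 1 array 1 or 2 of P14 or day 1 array 1 of the parental line, and of the 8 in BP14A 5 without day 1 array 2 of the parental line. A fit of only the 4 arrays compared called 1 member in BP14A, 0 in B and 2 in P14.

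Whether the change from EpiLC to day 1 differed between a line and the parental line was tested directly, as a difference of the 2 changes. In BP14A 5 members differed, 2 upward and 3 downward, against 8.62% and 10.1% of all genes. In B 2 members differed, both downward (background 3.72% and 4.94%). In P14 1 differed upward and 4 downward (background 4.83% and 7.29%), and in A no member and no other gene differed by limma, where 0 members and 652 genes had an unadjusted p under 0.05. The upward differences were those of Cox7a1, 0.96 in BP14A (SE 0.117, adjusted p 0.00011) and 0.80 in P14 (adjusted p 0.00067), and of Cox6b2 in BP14A (0.895, SE 0.172, adjusted p 0.0030). The value of Cox6b2 holds a difference of -0.44 from the parental line among EpiLCs, which was not called, and 1 of 0.455 on day 1. The downward differences were those of Ndufv3, Ndufa12 and Uqcrq in BP14A, of Ndufs8 and Uqcrq in B, and of Ndufv3, Ndufa12, Ndufs4 and Ndufv2 in P14. The median over the 79 members was -0.045 in BP14A, -0.04 in B, -0.085 in P14 and -0.035 in A. Over all genes it was -0.01, 0, -0.03 and -0.015 in the same order. Over the 1844 bright genes it was -0.055, -0.085, -0.06 and -0.045. Under a second quantile normalization the median of the members was above 0 in BP14A and B, at 0.0063 and 0.0093. After centring 2 differed upward and none downward in BP14A, and 1 and none in P14. The differences of Cox7a1 and of Cox6b2 passed under all 14 alternative settings, while those of Ndufv3 in BP14A were lost under 12 and those of Ndufs4 and Ndufv2 in P14 under 11.

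Genes that act beside the chain gave a mixed picture on the same arrays. The counts below stand beside the shares of all genes, which were 21.9% rising and 12.6% falling in the parental line, 23.2% and 17.8% in BP14A, 24.1% and 18% in B, 19.2% and 15.8% in P14, and 20.5% and 12.3% in A. Of 19 tested genes of the citric acid cycle and pyruvate dehydrogenase, 6 rose (31.6%) and 1 fell (5.26%) in the parental line and 7 rose (36.8%) and 4 fell (21.1%) in BP14A, where Idh2, the mitochondrial NADP-linked isocitrate dehydrogenase, rose by 1.16. Of 41 assembly factors 12 rose (29.3%) and 6 fell (14.6%) in the parental line, and 7 rose (17.1%) and 8 fell (19.5%) in B. Cox20, an assembly factor of complex IV, rose by 1.045 in the parental line and 1.325 in B, and Ecsit, an assembly factor of complex I, fell by 0.55 and 1.165. Of 17 genes of cytochrome c and coenzyme Q, 6 rose (35.3%) and 3 fell (17.6%) in the parental line. Etfdh, which feeds electrons of fatty acid oxidation to ubiquinone, rose by 1.125 there, and Cyct, the testis cytochrome c, fell by 1.03.

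The 76 mitochondrial ribosomal protein genes had more falls than rises in all 5 lines. In the parental line 14 rose and 16 fell, in BP14A 10 and 24, in B 6 and 39, in P14 8 and 23, and in A 11 and 15. The shares that fell were 21.1%, 31.6%, 51.3%, 30.3% and 19.7%, each above that of all genes, and the shares that rose were 18.4%, 13.2%, 7.89%, 10.5% and 14.5%, each below it, with a median change from -0.17 in B to 0.0225 in the parental line. Of 20 regulators of mitochondrial biogenesis 3 rose (15%) and 4 fell (20%) in the parental line. Nrf1 fell by 0.475 in the parental line, 0.58 in BP14A and 0.665 in P14. Esrrb, a nuclear receptor that is also 1 of the 5 embryonic stem cell genes above, rose by 2.415 in BP14A and 1.90 in P14 and fell by 0.475 in the parental line.

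Of 18 glycolysis genes 13 fell in the parental line and in A, 14 in B and P14 and 15 in BP14A, or 72.2% to 83.3%, with medians from -0.48 to -0.76, while 1 to 3 rose. Pdk1, the kinase that holds back pyruvate dehydrogenase, fell by 1.795 in the parental line, and the glucose transporter gene Slc2a3 rose there by 1.63. Of the 41 cytosolic ribosomal protein genes 2 rose and 2 fell in the parental line, 4.88% each.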

How the data were processed

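RNA of 20 samples (10 groups of 2) was hybridised to 1 array each. Per the labels, total RNA was labelled by a one-cycle protocol. The deposited table holds 1 log2 value per probe set and array, used as deposited. The deposited values carry a normalization and a summarisation of probes not given in the sources used here. Base 2 was inferred from the range of values, 0 to 13.83. Both arrays of each group are biological duplicates, per the series' design text.

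Of 45101 probe sets 64 controls were left out, 34945 named 1 gene, 932 several and 9160 none in the platform annotation. The 25357 probe sets that named 1 gene and whose highest group mean reached the 40th percentile of all values gave 14010 genes, each by its brightest probe set. In limma 3.58.1 (R 4.3.3) 1 mean per group was estimated over the 20 arrays (10 residual degrees of freedom, prior 1.79), and the 17 comparisons were contrasts of it with two-sided p-values. Tables and figures were made in Python 3.11.15 with pandas 2.3.3 and matplotlib 3.10.9. The members and the gene lists, written from general knowledge, were chosen with earlier results of these data known.

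Named members were up to 6 called genes with the largest change per direction and comparison, the lowest adjusted p per complex, all complex II genes and isoforms of restricted tissues. For the other lists they were up to 2 called genes per direction. Atp5d, Cox5b, Ndufa4, Atp5g3, Cox7a2 and Uqcrb, and the changes given for named genes in further lines, were chosen after their values were seen. Alternatives were the replicate number as a block, no filter, the mean of all kept probe sets of a gene, centring, a second quantile normalization, only the arrays compared, and leaving out each array. The procedure was tested on simulated data for the parental stage comparison. It recovered 10% of genes changed by 0.3 on the log2 scale, 42% at 0.5, 72% at 1 and 94% at 2. In that run of 14010 genes, 9 unchanged genes were called. The rates were not split by brightness, while 69 of the 79 members have a mean of at least 10. On the real arrays 4837 genes were called in this comparison, and the adjusted p depends on how many genes change. The simulated rates therefore do not give the recovery of members in the test used here. Promoters came from the RefSeq table of GRCm38.p6, which held 65 of the 79 tested members. Sdhc was not among them.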

Additional observations from a re-analysis of the deposited data

Results flagged for a closer look

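For 12 members and lines the change from EpiLC to day 1 differed from that of the parental line in a direct test of the difference (limma, adjusted p under 0.05 over all genes). All 4 lines were set against the same 4 parental arrays. In BP14A the difference on the log2 scale was 0.96 for Cox7a1 (SE 0.117, adjusted p 0.00011), 0.895 for Cox6b2 (SE 0.172, adjusted p 0.0030), -0.335 for Ndufa12 (SE 0.074, adjusted p 0.0072), -0.295 for Uqcrq (SE 0.074, adjusted p 0.015) and -0.355 for Ndufv3 (SE 0.104, adjusted p 0.033). Part of the value of Cox6b2 lay among EpiLCs, where BP14A differed from the parental line by -0.44 without a call. In B it was -0.38 for Uqcrq (SE 0.074, adjusted p 0.0090) and -0.445 for Ndufs8 (SE 0.102, adjusted p 0.020). In P14 it was 0.80 for Cox7a1 (SE 0.117, adjusted p 0.00067), -0.475 for Ndufv3 (SE 0.104, adjusted p 0.010), -0.315 for Ndufa12 (SE 0.074, adjusted p 0.015), -0.26 for Ndufv2 (SE 0.072, adjusted p 0.034) and -0.30 for Ndufs4 (SE 0.087, adjusted p 0.043). Groups of 2 arrays allow no test for an outlying sample.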

How the results depend on the processing

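Of 828 recomputed calls of named members under settings that keep all arrays of a comparison, 579 kept direction and threshold, 248 lost the threshold and 1 changed sign: Ndufa3 in the parental stage change, -0.078 with the mean of all kept probe sets (adjusted p 0.52). Of 600 with 1 array left out, 392 kept both, 208 lost the threshold and 0 changed sign. The lone array is there assumed to vary like the other groups. Counts of called members after centring were 12, 15, 10, 7 and 11 for the stage change of the parental line, BP14A, B, P14 and A, 4 and 4 for BP14A and P14 against the parental line on day 1, and 2, 1 and 1 for the differences of stage changes in BP14A, B and P14. With only the arrays compared, which leaves fewer residual degrees of freedom, they were 3, 7, 7, 5 and 4 (stage), 1, 0 and 2 (day 1, BP14A, B and P14) and 2, 0 and 2 (differences). Without a filter P14 had 5 on day 1 and 3 differences. With the mean of all kept probe sets B had 1 difference and P14 3, and after a second quantile normalization B had 7 on day 1 and P14 3 differences. The cause was not tested for these moves other than the fit of fewer arrays. Leaving out 1 array gave 18 to 35 called members in the parental stage change, 17 to 26 in BP14A, 19 to 23 in B, 10 to 16 in P14 and 9 to 15 in A. On day 1 it gave 5 to 6 in BP14A, 2 to 3 in B, 5 to 6 in P14 and 0 to 0 in A, and 0 to 0 in each line among EpiLCs. For the differences of stage changes it gave 3 to 9 in BP14A, 1 to 3 in B, 2 to 8 in P14 and 0 to 0 in A, with 9 and 8 without parental EpiLC array 2 and 3 in BP14A without its EpiLC array 1 or parental EpiLC array 1. In P14 2 were left without its EpiLC array 1, its day 1 array 2 or parental day 1 array 1, and 3 without its day 1 array 1, parental EpiLC array 1 or parental day 1 array 2. In B 1 was left without either EpiLC array, day 1 array 2, parental EpiLC array 1 or parental day 1 array 1.

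The replicate numbers pair the samples weakly at most. Over 45 pairs of groups the deviations of equal numbers correlated at -0.065 to 0.20 (median 0.024), 6 of them over 0.1. Among these, the day 1 groups of B, P14 and A correlated with each other at 0.14 to 0.20. With the number as a replicate block the counts were 43, 35, 32, 26 and 25 (stage), 9, 3, 9 and 0 (day 1), 0 in each line (EpiLC) and 5, 2, 6 and 0 (differences). All moved by less than 1.5 times.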

Other observations

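The array also carries a probe set for ND5, a complex I subunit encoded in mitochondrial DNA, which the selection by symbol did not include and which was chosen after its values were seen. Its change from EpiLC to day 1 was -0.595 in the parental line, -0.455 in BP14A, -0.385 in B, -0.38 in P14 and -0.61 in A (SE 0.157). It passed in the parental line, BP14A and A (limma adjusted p 0.011, 0.035 and 0.010) and did not pass in B and P14 (0.068 and 0.082).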
